A study of Rattus norvegicus with 12 samples.

Results

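Splicing factors and nuclear RNA-binding proteins were examined in 2 rat hepatic cell lines, with and without rapamycin. The members were the probes whose platform gene symbol belonged to the SR protein, hnRNP, SF3A and SF3B, snRNP, PRPF or U2AF families, together with 11 single genes (Rsrp1, Tra2a, Tra2b, Clk1, Clk2, Clk3, Clk4, Srrm1, Srrm2, Luc7l and Son). The rule goes by names, and it was set with earlier results of these data known. The rule found 59 probes for 58 genes, of 13337 named genes in the table, and Srsf11 was the gene with a second probe. By family there were 17 hnRNP genes, 10 PRPF genes, 9 SR protein genes, 7 RS-rich or SR-related genes, 5 SF3A or SF3B subunits, 5 snRNP protein genes, 4 CLK kinases and U2af1l4.

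Total RNA of 12 cultures was hybridized to RatRef-12 BeadChips, with 3 arrays in each of 4 groups, which were GN5 with 50 nM rapamycin for 24 h, GN5 with DMSO vehicle, H5D with 50 nM rapamycin for 24 h, and H5D with DMSO vehicle. GN5 is a tumorigenic line made by exposing the rat liver epithelial line WB-F344 to NNN, and H5D is a tumorigenic line from a hepatocellular carcinoma that an azo dye had produced in a Fischer rat. Rapamycin inhibits the kinase mTOR, and the labels give both lines an intermediate response to it. The medium was DMEM/F12 for GN5 and Waymouth for H5D, both with fetal bovine serum, so effects of line and medium cannot be told apart. Each line is 1 culture stock and the plates of a group are its replicates, so p-values measure the spread between plates.

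Most messenger RNA precursors are spliced by the spliceosome, which is built from small nuclear RNAs and their proteins (snRNPs). SR proteins bind exons and generally promote the use of nearby splice sites, while hnRNP proteins bind precursor RNA more widely and often oppose them. CLK kinases phosphorylate the arginine and serine rich (RS) domains of SR proteins, which moves these proteins within the nucleus and alters their activity. Levels below are log2 intensities after background correction and quantile normalization, and differences are log2 fold changes. An array probe of this kind measures part of a transcript, so splice forms of a member were not resolved. In bulk RNA, a lower level can mean less RNA per cell or fewer cells of one kind, which cannot be told apart.

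Of the 59 member probes, 52 were detected on all 12 arrays at a detection p of at most 0.01. Prpf18, Snrpc and Srsf12 were detected on no array, Clk3 and Snrpd1 on 1 array each, Hnrnpr on 4 arrays and Prpf40b on 5. A probe was tested where all 3 arrays of at least 1 group compared detected it, so 51 of the 58 genes entered the comparison within GN5 and 52 that within H5D. A gene was called at an adjusted p below 0.05 from limma's moderated test with Benjamini-Hochberg adjustment over all tested probes. With 3 arrays in a group the precision is limited. Between 33% and 37.7% of 22523 probes were detected per array. GN5 vehicle replicates 2 and 3 had raw medians of 105.9 and 96.17 against 74.28 to 82.7 on the other 10 arrays, and H5D vehicle replicate 2 had a minimum signal of 14.9 against 42.3 to 49.9 on the others. Of 9 hepatocyte markers on the array 8 were undetected on every array (Alb, Ttr and Hnf4a among them), Tf was detected in both lines, and Vim and Krt8 were detected in both lines.

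In GN5 cells 2 of the 51 tested member genes were called higher with rapamycin, Rsrp1 and Clk1, and 0 were called lower. The called share of all 7449 tested probes was 3.45% higher and 3.46% lower, and 3.92% of the members were called higher, so the share of members called higher was near the background. At an unadjusted p below 0.05, 9 members were higher and 5 were lower, 27.5% of the members against 23.9% of all tested probes. The median log2 fold change was −0.02 over the members and 0.01 over all tested probes. Scaling the arrays to a common median in place of quantiles gave 1 member higher and 5 lower, and it moved the median of all tested probes to −0.14. With that scaling 103 probes were called higher and 754 lower over the array, against 257 and 258. Rapamycin was also accompanied in GN5 by lower summed levels of the mesenchymal markers (13.24 to 13.31 against 13.46 to 13.64 in vehicle) and of the biliary and liver epithelial markers (12.78 to 12.89 against 13.06 to 13.12 in vehicle), whose part in the member results was not tested. The biliary and liver epithelial sum followed Krt8 (mean 12.74 with rapamycin, 13.03 in vehicle). Krt7 (8.55 and 8.38) and Spp1 (6.09 and 5.82) were higher with rapamycin. The hepatocyte list, which rests on Tf, stood at 8.72 to 8.94 with rapamycin and 8.53 to 8.72 in vehicle.

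Rsrp1, a gene for a small protein rich in arginine and serine, responded most. Its level was 10.67, 10.62 and 10.89 on the GN5 rapamycin arrays, against 9.93, 9.67 and 9.68 on the GN5 vehicle arrays. All rapamycin arrays lay above all vehicle arrays, and the groups averaged 10.73 ± 0.145 and 9.76 ± 0.146 (SD, n = 3 each). The log2 fold change was 0.97 ± 0.113 (SE), a 1.96-fold rise (limma adjusted p = 0.000612). The signals as scanned showed the same separation, since they were 1389, 1540 and 1841 on the rapamycin arrays and 1040, 1129 and 1003 on the vehicle arrays.

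Clk1 encodes a dual-specificity kinase that phosphorylates SR proteins. Its level was 9.43, 9.36 and 9.64 on the GN5 rapamycin arrays, against 8.97, 8.80 and 8.86 on the GN5 vehicle arrays. The groups did not overlap, and the log2 fold change was 0.60 ± 0.106 (SE), a 1.52-fold rise (limma adjusted p = 0.00676). The signals as scanned overlapped, at 606.8, 672.8 and 804.8 on the rapamycin arrays and 544.8, 644.6 and 583.8 on the vehicle arrays. Both calls held when any 1 array was left out, with adjusted p from 0.000216 to 0.00856 for Rsrp1 and from 0.00354 to 0.0479 for Clk1. Without both of the GN5 vehicle replicates with high raw medians, Rsrp1 was still called (0.80, limma adjusted p = 0.0179) and Clk1 was not (0.51, limma adjusted p = 0.0953). Clk1 also missed the threshold with scaling to a common median (0.43, limma adjusted p = 0.0513), and the methods' t-test called neither gene (adjusted p = 0.0747 for Rsrp1 and 0.104 for Clk1). The other kinases of the family were not called in GN5 cells: Clk4 gave 0.14 (95% interval −0.07 to 0.36) and Clk2 gave −0.27 (95% interval −0.55 to 0.02), while Clk3 was below the detection limit in this line.

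The upstream sequences of the tested kinase genes are shown because 1 of them was called in GN5 cells and the others were not. Clk3 was not tested and is not printed. Over the 250 bases before its start it held 0 matches to the motifs counted below. They come from RefSeq on the GRCr8 build, where 53 of the 58 member genes had an entry, and Luc7l, Rsrp1, Sf3b2, Srrm2 and Tra2a had none. Each run is the 150 bases before an annotated start, 5′ to 3′ on the strand of the gene. Clk1 lies at chr9:67453181-67453330, minus strand, and Clk2 at chr2:176868273-176868422, plus strand. Clk4 has a pair of annotated starts, with runs at chr10:36024308-36024457, plus strand, and chr10:36025590-36025739, plus strand. Capitals mark GGGCGG, the core of a GC box, and TGACG, part of a cyclic AMP response element, on either strand.
Clk1: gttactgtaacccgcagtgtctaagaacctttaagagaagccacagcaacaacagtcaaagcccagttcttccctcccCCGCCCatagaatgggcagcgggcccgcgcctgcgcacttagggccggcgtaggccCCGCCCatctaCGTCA
Clk2: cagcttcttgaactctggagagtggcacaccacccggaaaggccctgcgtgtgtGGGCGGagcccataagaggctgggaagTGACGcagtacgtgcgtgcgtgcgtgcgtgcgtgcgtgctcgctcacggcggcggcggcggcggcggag
Clk4, first start: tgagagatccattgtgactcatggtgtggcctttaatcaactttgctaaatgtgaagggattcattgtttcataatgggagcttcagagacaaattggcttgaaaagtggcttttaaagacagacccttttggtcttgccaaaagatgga
Clk4, second start: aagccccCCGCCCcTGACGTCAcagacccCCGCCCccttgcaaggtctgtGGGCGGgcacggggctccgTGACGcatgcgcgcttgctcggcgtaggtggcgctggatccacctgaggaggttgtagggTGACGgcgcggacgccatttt

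Clk1, Clk2 and the second start of Clk4 held both motifs in this window, and the first start of Clk4 held neither. The 2 GGGCGG matches of Clk1 and its TGACG lay on the opposite strand, and its TGACG ended at the base before the start. In the second Clk4 run 2 TGACG matches overlapped as TGACGTCA. Over the 250 bases before the start, GGGCGG was present in 58.6% of 58 member promoters, in 60.3% of 5598 promoters of genes tested on the array and in 30.5% of all 33469 promoters. TGACG was present in 46.6%, 30.8% and 18.2% of these, CCAAT in 48.3%, 35.9% and 34%, and TATAAA in 10.3%, 6.56% and 12.9%. The called Clk1 and the uncalled Clk2 both held these motifs, though in different number and on different strands. The matches are a description of the sequence, and their part in the calls was not tested.

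**Figure D1:**
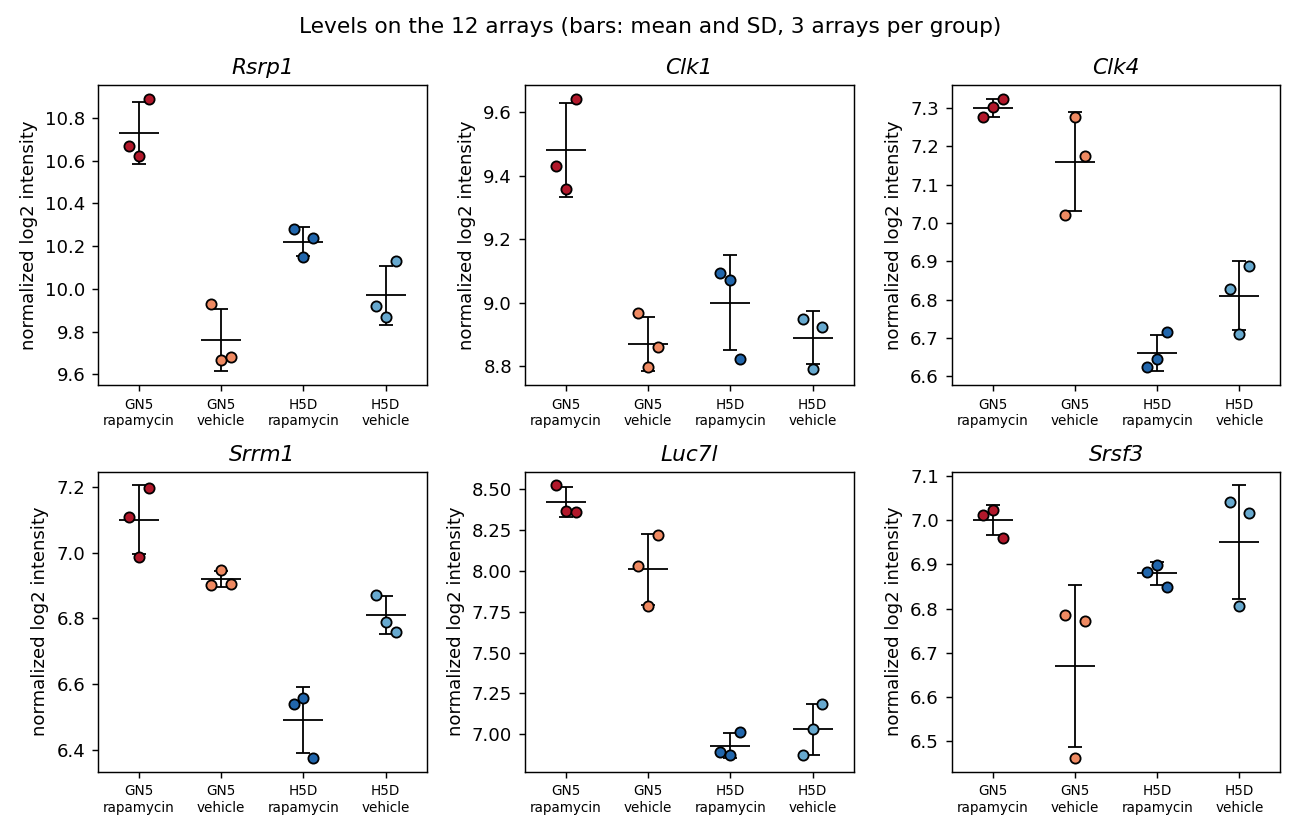
Normalized log2 intensity of Rsrp1, Clk1, Clk4, Srrm1, Luc7l and Srsf3 on each of the 12 arrays, by group. Points are single arrays and bars give the mean and SD of 3 arrays; the 3 GN5 rapamycin arrays of Rsrp1 (10.62 to 10.89) and of Clk1 (9.36 to 9.64) lie above all other arrays of these genes.

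Among the RS-rich and SR-related genes 1 of 7 was called in GN5 cells, 5 of the 7 were positive, and the family median was 0.26. Over all tested probes 51.2% were positive. Luc7l, the relative of a yeast U1 snRNP protein, was 8.53, 8.37 and 8.36 on the GN5 rapamycin arrays and 8.03, 7.79 and 8.22 on the GN5 vehicle arrays. These groups did not overlap, but the log2 fold change of 0.41 ± 0.12 (SE) missed the threshold (limma adjusted p = 0.0651). It passed without GN5 vehicle replicate 3 (0.51, limma adjusted p = 0.0255), on the authors' normalized values (0.34, limma adjusted p = 0.0428) and with scaling to the median of detected probes (0.42, limma adjusted p = 0.0437), an alternative chosen after seeing the data. Tra2a, a splicing activator related to the fly Transformer-2 protein, gave 0.43 ± 0.183 (SE, limma adjusted p = 0.179) with overlapping groups, since its GN5 vehicle arrays spread from 8.78 to 9.65, and it was called without GN5 vehicle replicate 1 (0.64, limma adjusted p = 0.0135). Son, a large protein of nuclear speckles, gave 0.26, and Srrm1, a coactivator that binds the exon junction complex, gave 0.18. Srrm2, a scaffold of nuclear speckles, gave −0.04, and Tra2b, the close relative of Tra2a, gave −0.03. Of these 6 genes 0 were called in the main limma fit over all 3 arrays a group, where Luc7l and Tra2a had an unadjusted p below 0.05.

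The 8 tested SR protein genes gave no call in GN5 cells in the main limma fit, with 2 higher and 1 lower at an unadjusted p below 0.05. Srsf3, a small SR protein, was 7.01, 7.02 and 6.96 on the GN5 rapamycin arrays and 6.79, 6.46 and 6.77 on the GN5 vehicle arrays. The groups lay apart, with a log2 fold change of 0.32 (limma adjusted p = 0.0945), which passed with scaling to the median of detected probes (0.41, limma adjusted p = 0.0365). Srsf6 gave 0.28 (limma adjusted p = 0.107), and Srsf2, a component of nuclear speckles, gave −0.32 (limma adjusted p = 0.1), both with groups that did not overlap. Scaling to a common median called Srsf2 lower (−0.53, limma adjusted p = 0.0234). Without GN5 vehicle replicate 1 it was also called lower (−0.43, limma adjusted p = 0.0178), as were Clk2 (−0.41, limma adjusted p = 0.0324) and Prpf31 (−0.41, limma adjusted p = 0.0263). Srsf11, the SR gene with a second probe, gave 0.07 and 0.12 on its probes.

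The core splicing factors gave no call in GN5 cells either after quantile normalization. With scaling to a common median Hnrnpf (−0.42, limma adjusted p = 0.0451), Hnrnpl (−0.50, 0.039), Hnrnph3 (−0.46, 0.0214) and Sf3a3 (−0.41, 0.0402) were called lower. The 16 tested hnRNP genes ran from −0.25 to 0.25 with a median of −0.06 (7 positive, and 2 positive with scaling to a common median), the 5 SF3A and SF3B subunits from −0.19 to 0.31, the 3 tested snRNP protein genes from −0.14 to 0.26 and the 8 tested PRPF genes from −0.34 to 0.10. By limma at an unadjusted p below 0.05, these families together had 1, 1, 1 and 0 higher and 3, 0, 0 and 1 lower genes in this order. Prpf31, a protein of the U4/U6 snRNP, was the lowest member at −0.34 (limma adjusted p = 0.0632). U2af1l4, a relative of the small U2AF subunit that reads the 3′ splice site, gave −0.02. For the genes that stood for their families by level, the log2 fold changes were −0.21 for Hnrnpf, −0.16 for Sf3b3, −0.02 for Snrpa and 0.03 for Prpf4.

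In H5D cells rapamycin changed 0 of 52 tested member genes by limma, and the methods' t-test also called 0. The called share of all 7895 tested probes was 0.317% higher and 0.405% lower. At an unadjusted p below 0.05 limma gave 1 higher member, Rsrp1, and 2 lower ones, Srrm1 and Srsf10, together 5.77% of the members against 16.7% of all tested probes. Over the members the median log2 fold change was −0.06, against −0.01 over all tested probes. Scaling to a common median also called 0 members, while over the array it called 156 probes higher and 8 lower, against 25 and 32, with a median of 0.17. The summed markers of hepatocytes (11.82 to 12.21 with rapamycin, 11.43 to 11.58 in vehicle) and of biliary and liver epithelium (14.31 to 14.42 with rapamycin, 14.07 to 14.18 in vehicle) were higher with rapamycin, and those of mesenchymal cells and leukocytes overlapped. The hepatocyte sum rests on Tf (mean 11.93 with rapamycin, 11.38 in vehicle), since the other hepatocyte markers on the array were undetected. In the biliary and liver epithelial list Krt19 was lower with rapamycin (7.44 against 7.63). The part of these marker differences in the member results was not tested.

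Rsrp1 was 10.28, 10.15 and 10.24 on the H5D rapamycin arrays, against 9.92, 9.87 and 10.13 on the H5D vehicle arrays. The groups lay apart by a narrow margin, and the log2 fold change was 0.25 ± 0.108 (SE, limma adjusted p = 0.285). Clk1 was 9.09, 9.07 and 8.82 on the H5D rapamycin arrays, against 8.95, 8.79 and 8.92 on the H5D vehicle arrays. These groups overlapped, with a log2 fold change of 0.11 (95% interval −0.14 to 0.36). Srrm1 was 6.54, 6.56 and 6.37 on the H5D rapamycin arrays, against 6.87, 6.79 and 6.76 on the H5D vehicle arrays, and all rapamycin arrays lay below all vehicle arrays. Its log2 fold change was −0.32 ± 0.102 (SE, limma adjusted p = 0.17), and Srsf10, an SR protein known for splicing repression, gave −0.29 (limma adjusted p = 0.292).

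**Figure D2:**
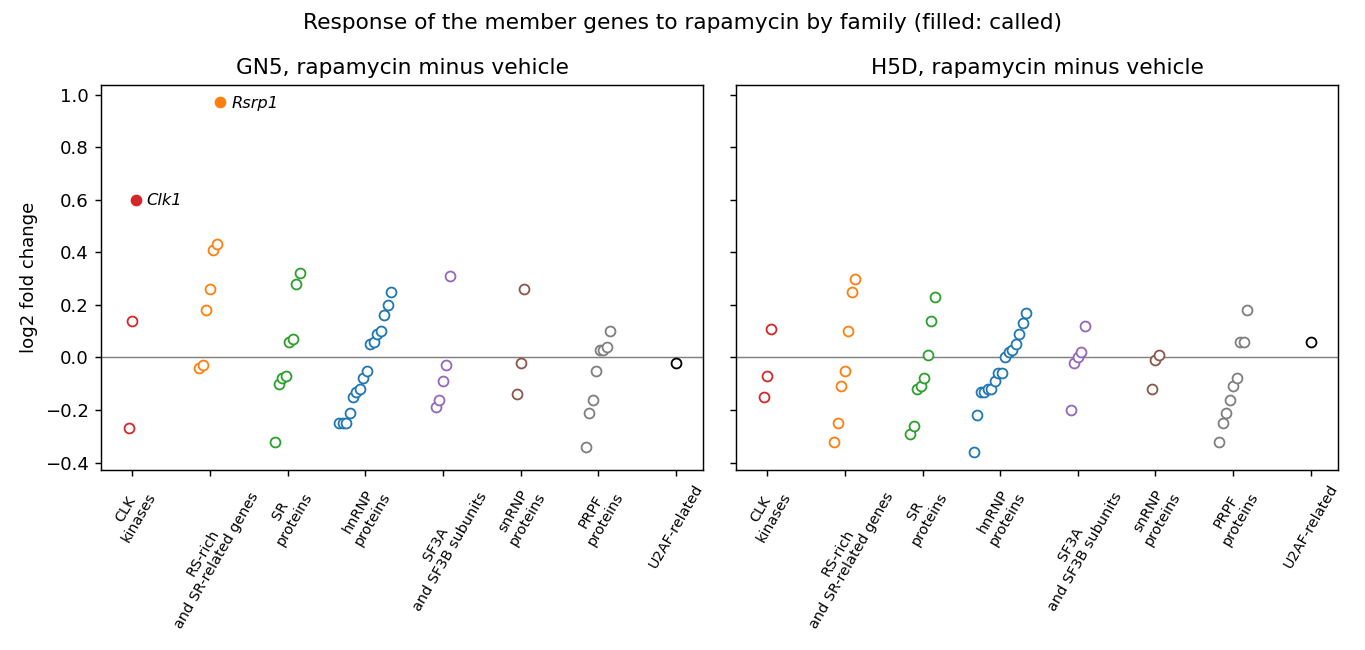
Log2 fold change, rapamycin minus vehicle, of each tested member gene in GN5 cells (left, 51 genes) and H5D cells (right, 52 genes), by family. Each point is a gene and filled points were called; Rsrp1 (0.97) and Clk1 (0.60) are filled in GN5 cells, and no point is filled in H5D cells.

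Whether the response to rapamycin differed between the lines was tested as an interaction over all 12 arrays. It was called for 1 of 52 members, Rsrp1, where the GN5 response exceeded the H5D response by 0.72 ± 0.156 (SE, 95% interval 0.38 to 1.05, limma adjusted p = 0.0359). The called share of all 8539 tested probes was 0.738% higher and 0.668% lower. The response of Rsrp1 was positive in both lines, and the contrast compares their sizes. This call was close to the threshold: with 1 array left out the difference ran from 0.64 to 0.80, and the call held without GN5 vehicle replicate 1 (limma adjusted p = 0.0237) or H5D vehicle replicate 2 (0.0313) and was lost when each of the other 10 arrays was left out. The limma adjusted p was then 0.069, 0.0535 and 0.0994 without GN5 rapamycin replicates 1, 2 and 3, 0.109 and 0.0748 without GN5 vehicle replicates 2 and 3, 0.0591, 0.115 and 0.0614 without H5D rapamycin replicates 1, 2 and 3, and 0.0633 and 0.0749 without H5D vehicle replicates 1 and 3.

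The summed level of the biliary and liver epithelial markers was lower with rapamycin in GN5 and higher in H5D. The genes of the list did not all move with the sum. In GN5 it followed Krt8, while Krt7 and Spp1 were higher with rapamycin, and in H5D Krt19 was lower. The part of these markers in this contrast was not tested. At an unadjusted p below 0.05 were 13.5% of the members and 14.5% of all tested probes (7.42% positive and 7.04% negative). Besides Rsrp1 the members were 6 with a positive difference, GN5 minus H5D, which missed the threshold after adjustment. They were Luc7l (0.51, limma adjusted p = 0.165), Clk1 (0.50, 0.135), Srrm1 (0.50, 0.0813), Srsf3 (0.40, 0.212), Hnrnpdl (0.33, 0.288) and Clk4 (0.29, 0.329). For Srrm1 the 3 GN5 rapamycin arrays (7.11, 6.99 and 7.20) lay above the GN5 vehicle arrays (6.90, 6.95 and 6.91), whereas the H5D rapamycin arrays lay below the H5D vehicle arrays. All 7 RS-rich and SR-related genes had positive differences, from 0.03 for Tra2b to 0.72 for Rsrp1, where 51.1% of all tested probes were positive. The count of this family fell to 3 of 7 when each array was scaled to a common median. That scaling shifted the median of all tested probes to −0.29 in this contrast. Scaling to a common median also ended the call of Rsrp1 (0.36, limma adjusted p = 0.302). The hnRNP genes were split evenly, 8 positive and 8 negative, and 0 of 16 were positive with that scaling. Over the members the median difference was 0.08, against 0.01 over all tested probes.

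**Figure D3:**
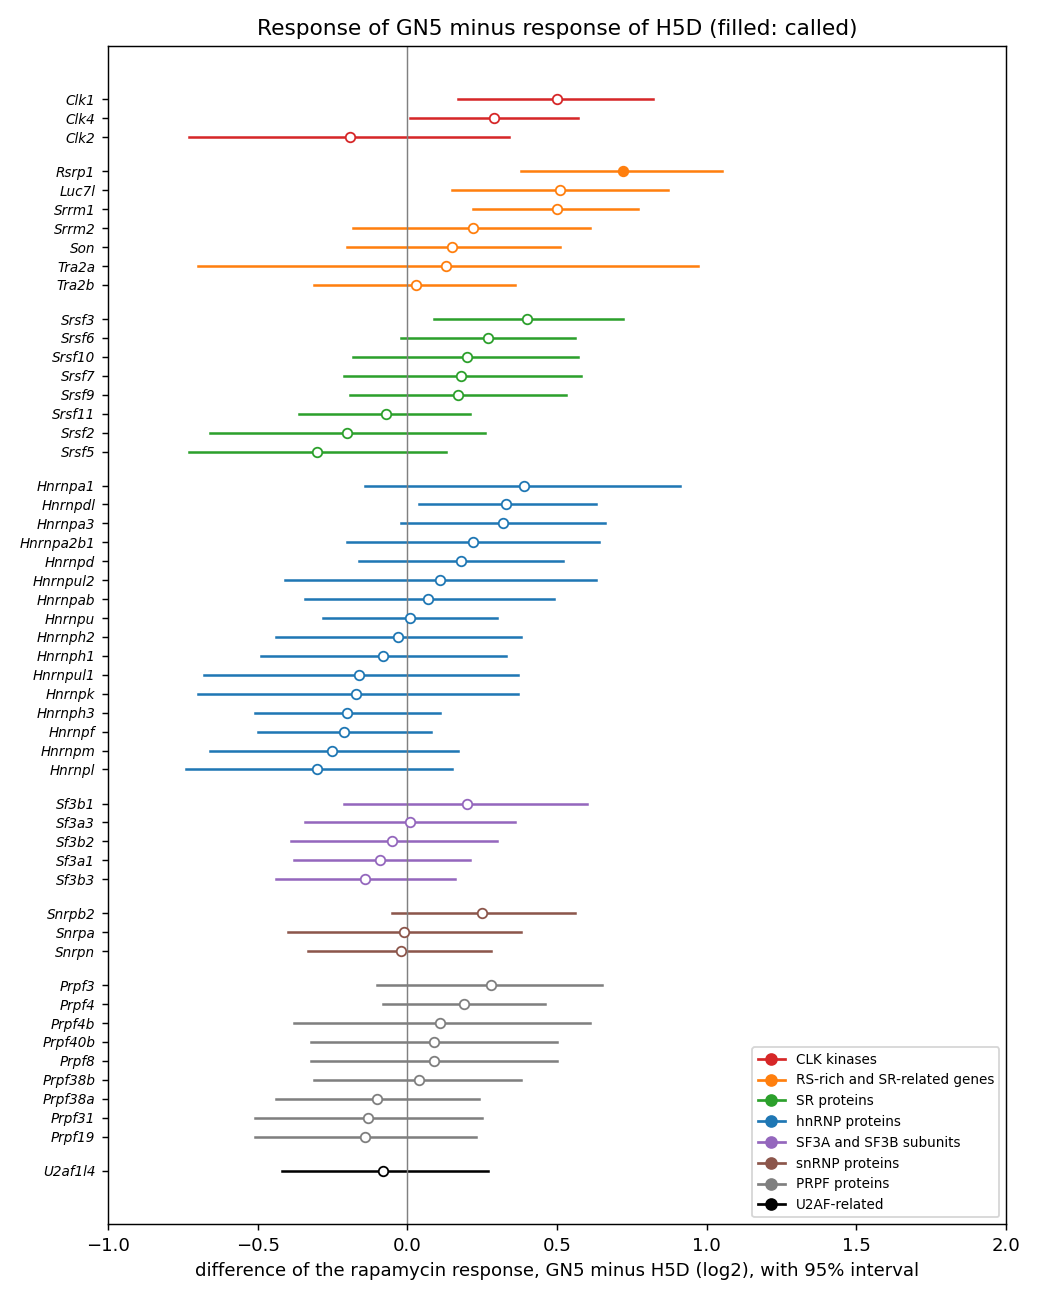
Difference of the rapamycin response, GN5 minus H5D (log2, horizontal axis), for the 52 tested member genes, ordered by family and size. Points are estimates, lines are 95% intervals and the filled point was called; for Rsrp1 the interval runs from 0.38 to 1.05.

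The lines differed in many more members than the treatments did. Under rapamycin 26 of 51 tested members were called between GN5 and H5D, 20 higher and 6 lower in GN5. The called share of all 8288 tested probes was 38.1% higher and 34.1% lower, against 39.2% and 11.8% of the members. Under vehicle 17 of 52 members were called, 14 higher and 3 lower in GN5, or 26.9% and 5.77%, against 32.3% higher and 31.0% lower of 8279 tested probes. In both comparisons the called-higher share of the members was near the background or below it, and the called-lower share was below it. Over the members the median log2 fold change was 0.19 under rapamycin and 0.13 under vehicle, against 0.05 and 0.04 over all tested probes. With scaling to a common median the counts were 9 higher and 8 lower under rapamycin and 21 higher and 1 lower under vehicle, and over the array 1855 higher and 3504 lower under rapamycin and 2711 higher and 2063 lower under vehicle. The medians of all tested probes were then −0.17 and 0.10. That scaling ended the rapamycin calls of 11 of the 26 members, which were Sf3b2 (0.21), Clk1 (0.23), Rsrp1 (0.31), Srrm1 (0.31), Srrm2 (0.29), Tra2b (0.11), Srsf6 (0.22), Hnrnph2 (0.24), Hnrnph3 (0.03), Hnrnpa2b1 (0.06) and Prpf38a (0.25), with limma adjusted p from 0.0565 to 0.866. Under vehicle it ended those of Clk4, Hnrnpa3 and Hnrnpf. The 2 comparisons shared no array, and 15 members were called in both in the same direction, which is 57.7% of those called under rapamycin and 88.2% of those called under vehicle. Over all probes the same shares were 77.6% and 88.7%. Other markers also moved with the line, since the stromal genes Col1a1, Lum and Dcn were detected in GN5 on all 6 arrays and in H5D on none, while Krt19 was detected in H5D on all 6 arrays and in GN5 on none. Of the whole lists, 4 of 5 mesenchymal markers on the array were detected in GN5 and 1 of 5 in H5D, and 2 of 5 biliary and liver epithelial markers in GN5 and 4 of 5 in H5D. The summed level of the hepatocyte list, which rests on Tf, was 8.72 to 8.94 in GN5 and 11.82 to 12.21 in H5D under rapamycin, and that of the biliary and liver epithelial list 12.78 to 12.89 in GN5 and 14.31 to 14.42 in H5D. The mesenchymal list, led by Vim, stood at 13.24 to 13.31 in GN5 and 13.11 to 13.22 in H5D. The leukocyte list, led by Cd14 and with Ptprc undetected, stood at 7.94 to 8.11 in GN5 and 10.72 to 11.05 in H5D under rapamycin, and at 7.55 to 7.98 in GN5 and 10.69 to 10.91 in H5D under vehicle. Under vehicle the hepatocyte, biliary and mesenchymal lists were at 8.53 to 8.72, 13.06 to 13.12 and 13.46 to 13.64 in GN5, against 11.43 to 11.58, 14.07 to 14.18 and 12.82 to 13.35 in H5D. The part of these differences in the member results was not tested.

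Snrpn was the member with the largest difference between the lines. It encodes SmN, a core Sm protein of snRNPs that is closely related to SmB and comes from an imprinted locus. The probe sequence was not used here, so whether it separates the related genes was not assessed. Its level was 8.02, 7.97 and 8.10 on the GN5 rapamycin arrays, against 9.66, 9.78 and 9.81 on the H5D rapamycin arrays, and 8.03, 8.14 and 8.35 on the GN5 vehicle arrays, against 9.91, 9.92 and 9.79 on the H5D vehicle arrays. All GN5 arrays lay below all H5D arrays by more than 1 log2 unit. The log2 fold change was −1.72 ± 0.0941 (SE, limma adjusted p = 5.01e-09) under rapamycin and −1.70 ± 0.117 (limma adjusted p = 2.78e-07) under vehicle, so GN5 was 3.3-fold and 3.24-fold lower. Its log2 fold change with rapamycin was −0.14 in GN5 and −0.12 in H5D, neither called (limma adjusted p = 0.461 and 0.587). Snrpa, the U1 snRNP A protein, went the other way at 0.66 and 0.67, and Snrpb2, a U2 snRNP protein, was not called at 0.13 and −0.12.

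Luc7l was the member most above H5D in GN5. Its level was 6.89, 6.87 and 7.01 on the H5D rapamycin arrays and 6.88, 7.03 and 7.19 on the H5D vehicle arrays, below all GN5 arrays given above. The log2 fold change was 1.49 ± 0.0958 (SE, limma adjusted p = 2.43e-08) under rapamycin, a 2.82-fold difference, and 0.98 ± 0.137 (limma adjusted p = 9.29e-05) under vehicle, a 1.98-fold difference. Of the other RS-rich genes, Srrm2 was called in both comparisons (0.59 and 0.37), and Srrm1 (0.61), Rsrp1 (0.51) and Tra2b (0.30) were called under rapamycin and not under vehicle, where they gave 0.11, −0.21 and 0.27. Tra2a was called lower under rapamycin (−0.50, limma adjusted p = 0.00309) and gave −0.63 under vehicle without a call (limma adjusted p = 0.101), as its H5D vehicle arrays spread from 9.10 to 10.51. Without H5D vehicle replicate 2 the vehicle value was −1.01 (limma adjusted p = 0.00312), and without GN5 vehicle replicate 1 it was −0.85 (limma adjusted p = 0.0482). Son gave 0.17 and 0.01 and was not called. For Srrm1, Tra2b and Tra2a the difference between these treatments was not called in the interaction.

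Clk4 was called higher in GN5 in both comparisons. Its level was 7.28, 7.30 and 7.33 on the GN5 rapamycin arrays, against 6.63, 6.65 and 6.72 on the H5D rapamycin arrays, and 7.02, 7.28 and 7.18 on the GN5 vehicle arrays, against 6.83, 6.71 and 6.89 on the H5D vehicle arrays. The groups lay apart, with log2 fold changes of 0.64 (limma adjusted p = 3.5e-05) under rapamycin and 0.35 (limma adjusted p = 0.0197) under vehicle. The vehicle call was lost without GN5 vehicle replicate 2 (0.29, limma adjusted p = 0.0863) or H5D vehicle replicate 2 (0.30, limma adjusted p = 0.0515), without both of GN5 vehicle replicates 2 and 3 (0.21, limma adjusted p = 0.329), with scaling to a common median (0.36, limma adjusted p = 0.0768) and with scaling to the median of detected probes (0.20, limma adjusted p = 0.179). Clk1 was called under rapamycin (0.48, limma adjusted p = 0.00203) and stood at −0.01 under vehicle, and Clk2 gave 0.20 and 0.40 without a call. Clk2 was called without H5D rapamycin replicate 3 (0.35, limma adjusted p = 0.0354) and, under vehicle, without GN5 vehicle replicate 1 (0.54, limma adjusted p = 0.0196) or H5D vehicle replicate 2 (0.57, limma adjusted p = 0.00657).

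Among the SR proteins, Srsf9 was the clearest difference. Its level was 8.98, 8.69 and 8.72 on the GN5 rapamycin arrays, against 7.87, 7.98 and 8.02 on the H5D rapamycin arrays, and 8.62, 8.64 and 8.95 on the GN5 vehicle arrays, against 7.92, 8.06 and 8.21 on the H5D vehicle arrays. GN5 was higher by 0.84 (limma adjusted p = 1.46e-05) and 0.67 (limma adjusted p = 0.00093), without overlap. Srsf6 was called under rapamycin (0.43) and Srsf5 under vehicle (0.54), both higher in GN5. Without a call, GN5 also had the higher mean of Srsf6 under vehicle (10.58 against 10.42) and of Srsf5 under rapamycin (10.07 against 9.83). Neither gene was called in the interaction. Srsf11 was called lower under rapamycin on its brighter probe (−0.32, limma adjusted p = 0.0107), but not on its other probe (−0.14, limma adjusted p = 0.27). The brighter probe also lost its call without GN5 rapamycin replicate 3 (−0.26, limma adjusted p = 0.0518).

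**Figure D4:**
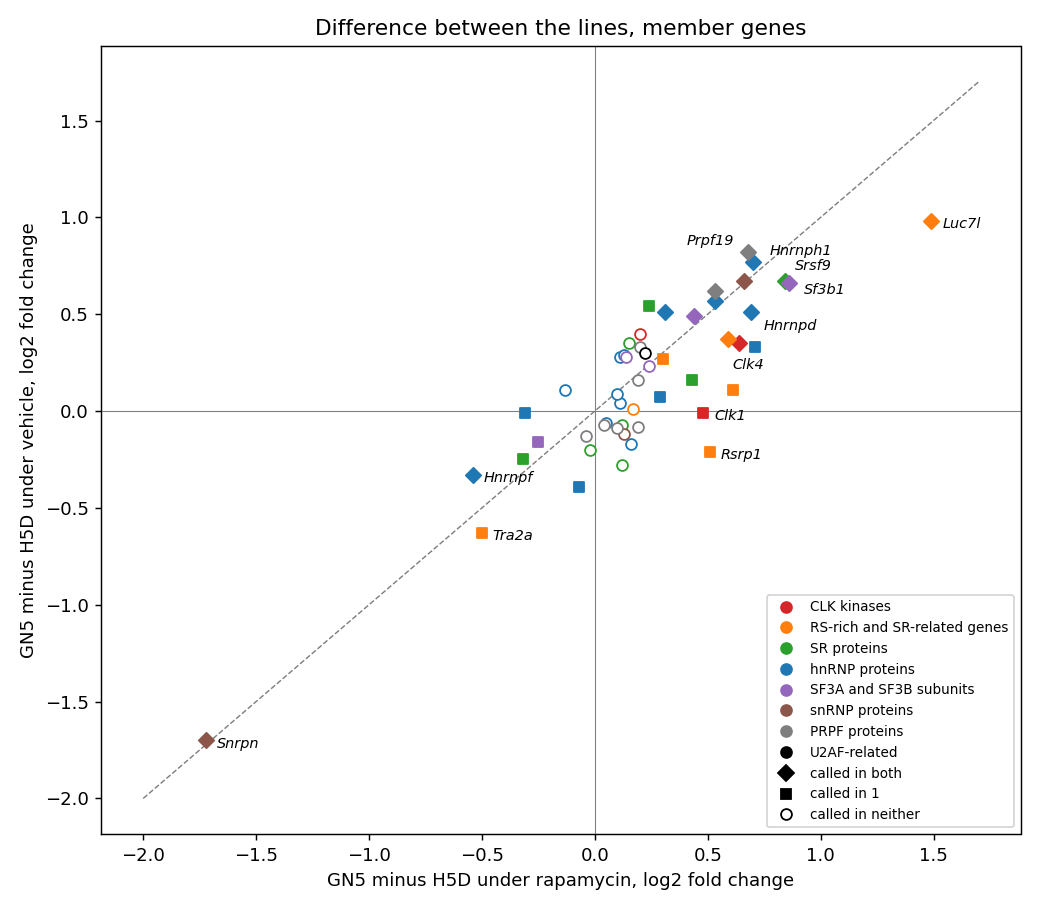
Log2 fold change between the lines, GN5 minus H5D, under rapamycin (horizontal) and under vehicle (vertical) for the 51 member genes tested in both, which use separate arrays. Colours give families and marker shapes the number of comparisons with a call, the dashed line is equality; Snrpn (−1.72 and −1.70) and Luc7l (1.49 and 0.98) lie at the ends.

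Sf3b1, the subunit of SF3B that grips the branch site, was higher in GN5 by 0.86 (limma adjusted p = 2.05e-05) under rapamycin and 0.66 (limma adjusted p = 0.0019) under vehicle. Its level was 7.20, 7.46 and 7.36 on the GN5 rapamycin arrays, against 6.66, 6.45 and 6.33 on the H5D rapamycin arrays, and 7.24, 7.12 and 6.73 on the GN5 vehicle arrays, against 6.33, 6.27 and 6.49 on the H5D vehicle arrays. All GN5 arrays lay above all H5D arrays. Sf3b2, its partner in the complex, was called in both comparisons (0.44 and 0.49). Sf3a1, a subunit of SF3A, was called lower under rapamycin (−0.25, limma adjusted p = 0.0462), a call lost without GN5 rapamycin replicate 2 (−0.24, 0.104), GN5 rapamycin replicate 3 (−0.22, 0.134), H5D rapamycin replicate 1 (−0.18, 0.156) or H5D rapamycin replicate 2 (−0.24, 0.116). Sf3a1 was not called in the interaction.

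Of 16 tested hnRNP genes, 6 were called higher and 2 lower in GN5 under rapamycin, and 4 higher and 2 lower under vehicle. These are 37.5% and 12.5% under rapamycin, against 38.1% and 34.1% of all probes, and 25% and 12.5% under vehicle, against 32.3% and 31.0%, so the shares were near the background or below it. Hnrnph1, which binds runs of G, was 9.96, 10.26 and 10.31 on the GN5 rapamycin arrays, against 9.24, 9.59 and 9.61 on the H5D rapamycin arrays, and 10.11, 10.05 and 10.21 on the GN5 vehicle arrays, against 9.15, 9.59 and 9.31 on the H5D vehicle arrays. It was higher in GN5 by 0.70 and 0.77 (limma adjusted p = 0.00037 and 0.000355), with no overlap. Its relatives Hnrnph2 (0.53 and 0.57) and Hnrnph3 (0.31 and 0.51) were called in the same direction, and the related Hnrnpf in the opposite one. Hnrnpf was 12.62, 12.66 and 12.81 on the GN5 rapamycin arrays, against 13.19, 13.29 and 13.21 on the H5D rapamycin arrays, and 12.96, 12.97 and 12.78 on the GN5 vehicle arrays, against 13.21, 13.33 and 13.15 on the H5D vehicle arrays. It was lower in GN5 by −0.54 (limma adjusted p = 0.000265) and −0.33 (limma adjusted p = 0.0241), and the vehicle call was lost without GN5 vehicle replicate 3 (−0.26, limma adjusted p = 0.0814), H5D vehicle replicate 1 (−0.33, limma adjusted p = 0.0539) or H5D vehicle replicate 2 (−0.28, limma adjusted p = 0.0626) and with scaling to a common median (−0.05, limma adjusted p = 0.81).

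Hnrnpd, which binds AU-rich elements, was also called in both comparisons (0.69 and 0.51). Hnrnpa1 (0.71) and Hnrnpa2b1 (0.29) were called higher and Hnrnpl (−0.31) lower under rapamycin, where Hnrnpl had overlapping groups, and Hnrnpa3 was called lower under vehicle (−0.39). None of these genes was called in the interaction. Under rapamycin Hnrnpa2b1 lost its call without GN5 rapamycin replicates 1 or 3 or H5D rapamycin replicate 1 (limma adjusted p up to 0.101), Hnrnph3 without GN5 rapamycin replicate 1 (0.05), Hnrnpl without GN5 rapamycin replicates 1 or 2 or H5D rapamycin replicates 2 or 3 (up to 0.085), and Tra2b without GN5 rapamycin replicates 1 or 3 or H5D rapamycin replicate 2 (up to 0.0757). Hnrnpa3 lost its vehicle call without GN5 vehicle replicate 2 (limma adjusted p = 0.0665) or H5D vehicle replicate 1 (limma adjusted p = 0.0622) and with scaling to a common median (−0.26, limma adjusted p = 0.216). Hnrnpa1 and several of its relatives have near-identical processed copies in mammalian genomes, so their probes can measure more than 1 locus.

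Prpf19, the ubiquitin ligase at the core of the Prp19 complex, was 9.77, 9.86 and 9.75 on the GN5 rapamycin arrays, against 9.03, 8.98 and 9.35 on the H5D rapamycin arrays, and 9.63, 9.74 and 9.88 on the GN5 vehicle arrays, against 8.94, 8.73 and 9.13 on the H5D vehicle arrays. GN5 was higher by 0.68 (limma adjusted p = 0.000148) and 0.82 (limma adjusted p = 0.00024), without overlap. Prpf38a, which joins the spliceosome with the U4/U6.U5 particle, was also called in both (0.53 and 0.62). Prpf8, the large protein at the catalytic centre, was not called in any of the 5 comparisons after quantile normalization. Its log2 fold changes between the lines were −0.04 and −0.13, and scaling to a common median called it lower under rapamycin (−0.34, limma adjusted p = 0.0359).

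**Figure D5:**
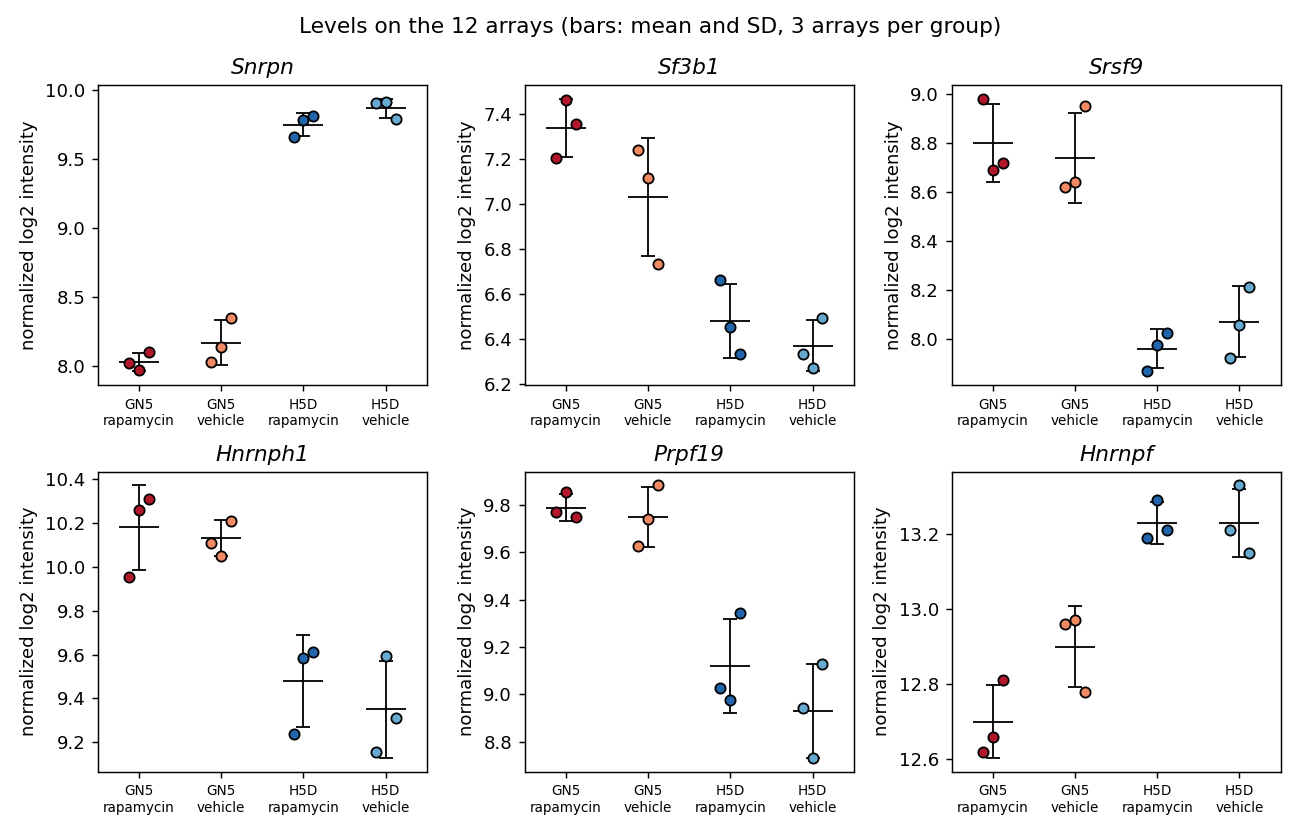
Normalized log2 intensity of Snrpn, Sf3b1, Srsf9, Hnrnph1, Prpf19 and Hnrnpf on each of the 12 arrays, by group. Points are single arrays and bars give the mean and SD of 3 arrays; GN5 arrays lie below H5D arrays for Snrpn and Hnrnpf and above them for the other genes shown.

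Other genes of the splicing pathway were counted in 4 lists that the membership rule did not take. Of 41 tested spliceosome genes outside the families, 1 was called in GN5 cells, Syf2, higher with rapamycin (10.24 against 9.83, limma adjusted p = 0.0268). Of 31 tested other splicing regulators, 1 was called, Rbm25, also higher (6.60 against 6.16, limma adjusted p = 0.0284). The called-higher shares of these lists were 2.44% and 3.23%, below the 3.45% of all tested probes. Both calls were lost with scaling to a common median, where Syf2 gave 0.20 (limma adjusted p = 0.29) and Rbm25 gave 0.37 (limma adjusted p = 0.0827). In list order that scaling called 0 genes higher and 4, 0, 2 and 1 lower. Of all its calls over the array in GN5, 12% were higher. Rbm25 encodes an RS-related protein that binds near splice sites, and Syf2 a component of the Prp19-related complex. None of the 8 tested genes of the exon junction complex, nonsense-mediated decay and mRNA export and none of the 12 of snRNP assembly was called in GN5 cells in the main limma fit. There 0 and 1 were higher and 1 and 2 lower at an unadjusted p below 0.05. In H5D cells 0 genes of the 4 lists were called by limma, against 0.317% higher and 0.405% lower of all tested probes. Of 42, 30, 9 and 11 tested genes, 1, 0, 0 and 2 were higher and 5, 3, 3 and 0 lower at an unadjusted p below 0.05. At that threshold 8.79% of all tested probes were higher and 7.89% lower in H5D, and 12.2% and 11.7% in GN5.

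In the interaction Rbm25 was the gene of these lists that was called, at 0.75 ± 0.14 (SE, limma adjusted p = 0.0147), a call lost with scaling to a common median (0.48, limma adjusted p = 0.18). Its means were 6.60 in GN5 rapamycin, 6.16 in GN5 vehicle, 6.71 in H5D rapamycin and 7.02 in H5D vehicle. Between the lines 38.1% of all probes were called higher and 34.1% lower under rapamycin, and 32.3% and 31.0% under vehicle, and the lists are read against these. The spliceosome list gave 7 higher and 12 lower genes of 41 under rapamycin and 5 and 14 of 41 under vehicle. Lsm7 (0.75 and 1.04) and U2surp (0.68 and 0.63) were among the higher ones, and Cwc27 (−1.25 and −1.19) and Rbm17 (−0.78 and −0.91) among the lower ones. The list of other regulators gave 16 higher and 3 lower of 30 under rapamycin and 9 and 5 of 31 under vehicle, among them the cold-inducible Rbm3 (1.39 and 1.39), Taf15 (1.34 and 1.25) and Rbfox2 (1.03 and 0.84), and the SR protein kinase Srpk1, which was lower in GN5 (−0.59 and −0.76). For exon junction, decay and export genes the counts were 5 higher and 1 lower of 8 under rapamycin and 2 and 2 of 9 under vehicle, with Thoc6 at 0.73 and 0.75. For snRNP assembly they were 2 and 5 of 11 under rapamycin and 2 and 3 of 12 under vehicle, with Smn1, the protein of the SMN complex that loads Sm proteins, at −0.59 and −0.67. With scaling to a common median the 4 lists in this order gave 2, 5, 2 and 0 higher and 18, 7, 1 and 5 lower under rapamycin, and 4, 10, 2 and 3 higher and 7, 4, 1 and 1 lower under vehicle, so the balance of higher and lower genes in a list depended on the scaling. The 10 genes named here for their line differences were called in both comparisons with it.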

How the data were processed

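Total RNA was extracted with Trizol and purified, labelled as biotin cRNA and hybridized to Illumina RatRef-12 BeadChips, with 12 arrays, 3 for each of 4 groups. The authors deposited a mean bead intensity and a detection p-value per probe and array, without normalization, and a second table of intensities that their BeadStudio software (its version is not given in the sources used here) had put on common quantiles, and Partek 6.3 was used for their statistics. Its array medians were 80.5 to 80.6.

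From the unnormalized intensities, neqc of limma 3.58.1 in R 4.3.3 corrected the background (estimated from the detection p-values, offset 16), quantile normalized and took log2. Of 22523 probes 13793 carried 1 platform gene symbol, 0 several and 8730 none, and 13752 were updated through Entrez identifiers to the GRCr8 gene table, which was used for names. For Srsf11 the brighter tested probe stood for the gene. Each comparison was fitted with lmFit and eBayes on the arrays of its groups, and the difference of responses on all 12 arrays, without a block. Between groups, the deviations of same-numbered replicates from their group means had correlations from −0.387 to 0.35. Replicates of different number were not compared, so these values cannot decide whether the numbers pair the arrays. The fitting steps were tested on simulated normalized values with known changes, and the mean estimates were close to these. Background correction, normalization and the share of probes called were not checked by this test.

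The text names the 11 single genes, the called members (at most 12 a direction), the member with the highest level in each family, members whose probes disagreed, and at most 4 called genes a direction from each of 4 other lists. Any other gene was named with its values in view. The members and lists were chosen with earlier results of these data known. Alternatives were the authors' normalized values, scaling to a common median, other detection filters, a replicate block, all 12 arrays in 1 fit, a form of the methods' t-test with a fold change of at least 1.2, and leaving out arrays. That t-test, called the methods' t-test below, ran on the neqc values. Its fold change limit was applied after the adjustment, and in the methods it came before the test. Scaling to the median of detected probes was added after seeing the data. Slide and scan are not given in the sources used here, so no batch block was run.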

Additional observations from a re-analysis of the deposited data

Results flagged for a closer look

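Rsrp1 stood out because its response to rapamycin differed between the lines by a test of the difference itself. The response in GN5 exceeded that in H5D by 0.72 on the log2 scale (limma adjusted p = 0.0359), with log2 fold changes of 0.97 in GN5 and 0.25 in H5D. This call was close to the threshold and held under 6 of 19 alternatives. It was lost with scaling to a common median, without a filter and when most of the single arrays were left out. In both lines all 3 rapamycin arrays lay above all 3 vehicle arrays.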

How the results depend on the processing

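No called member reversed its direction under any alternative run. Of the 26 members called between the lines under rapamycin, 11 were called under every alternative and 20 with any 1 array left out, and of the 17 under vehicle 10 and 14 were. In H5D 0 members were called under every alternative. For the response in GN5, the members called numbered 6 with scaling to a common median, 4 with scaling to the median of detected probes (chosen after seeing the data), 0 by the methods' t-test, 1 without both of GN5 vehicle replicates 2 and 3, and 2 to 6 with 1 array left out, against 2. All probes called in GN5 numbered 857, 774, 38, 156 and 164 to 934 in the same order, against 515, and 233 without a filter. In H5D they numbered 164 with scaling to a common median, 87 with the authors' values, 31 without a filter, 290 with all 12 arrays in 1 fit, 0 by the t-test and 0 to 44 with 1 array left out, against 57. Scaling to a common median left 17 members called between the lines under rapamycin (23 to 30 with 1 array left out), and leaving out both GN5 vehicle replicates 11 under vehicle (16 to 23). For the difference of responses the members called were 0 with scaling to a common median, without a filter or without both GN5 vehicle replicates, 2 (Rsrp1 and Srrm1) with scaling to the median of detected probes, and 0 to 1 with 1 array left out, against 1. All probes called there were 252 with scaling to a common median, 46 when detected on all arrays, 201 with scaling to the median of detected probes, of which 167 were higher, 14 without both GN5 vehicle replicates and 58 to 139 with 1 array left out, against 120. The replicate block gave 2 members and 330 probes in GN5, 0 and 15 in H5D, 26 members between the lines under rapamycin, 23 under vehicle and 1 for the difference. The replicate numbers are shared labels, and whether they mark pairs was not decided. The t-test and the fit on all 12 arrays were not run for the difference, which already uses all arrays, and no batch block was run. The cause of these changes was not tested. Between 33% and 37.7% of probes were detected per array, so the median of all probes is set by undetected ones, and Clk3, Snrpd1 and Hnrnpr were too dim to be tested.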
